A study of Mus musculus with 8 samples.

Results

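The Wnt ligands, receptors and modulators were described in NSPCs (neural stem and progenitor cells) that flow cytometry had sorted from mouse cortex on postnatal day 7. The members were the protein-coding genes named as numbered Wnt, Fzd, Sfrp, Dkk, Dkkl, Nkd, Dvl, Axin, Lgr, Lef or Tcf7 family genes, together with Lrp5, Lrp6, Ctnnb1, Apc, Gsk3b, Znrf3, Rnf43, Notum and Wif1. They numbered 61 of the 55385 genes in the deposited table. The iKO group held 4 libraries from mice with Nestin-CreERT2, 2 floxed alleles of Ash2l (Ash2l f/f) and a tdTomato reporter. The WT group held 4 libraries from mice with Nestin-CreERT2 and tdTomato, with no floxed Ash2l listed, so both groups carried the Cre and the reporter. Nestin-CreERT2 places a tamoxifen-dependent Cre recombinase under Nestin regulatory sequence, which is active in neural progenitors and which some transgenic lines also drive in vessel-associated cells. The dose and time of tamoxifen, the marker used for sorting and the number of animals behind each library are not stated in the labels used here. The submitters call the libraries biological replicates, and where libraries do not come from separate animals the p-values measure a spread that may be technical.

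Wnt proteins are secreted lipid-modified ligands that bind Frizzled receptors together with LRP5 or LRP6. In the canonical branch, Dishevelled then inhibits a destruction complex built on Axin, APC and GSK3, β-catenin (Ctnnb1) escapes degradation, and β-catenin acts in the nucleus with the TCF/LEF factors. LGR receptors bind R-spondins and thereby hold back ZNRF3 and RNF43, the E3 ligases that remove Frizzled from the surface, while SFRP, DKK and WIF1 proteins modulate the pathway outside the cell. In the cortex, Wnt signalling is known for roles in progenitor expansion, in patterning and in the growth of brain vessels. ASH2L belongs to the core of the enzyme complexes that place methyl groups on lysine 4 of histone H3, a mark of active and CpG-rich promoters.

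Values were TPM, transcript abundances divided by transcript length and scaled to the same library total, so levels may be set side by side between genes. TPM keeps no read depth, and the depth per library is unknown. Ash2l, the targeted gene, was 7.13 ± 0.714 TPM in iKO, against 17.6 ± 1.33 TPM in WT (limma adjusted p = 3.82e-06). Here and throughout, values after ± are SDs over n = 4 libraries per group. Log2(TPM + 1) profiles correlated at 0.9871 to 0.9897 within groups and 0.9623 to 0.9645 between groups, and no library stood apart from its own group. Of 10 NSPC and radial glia markers 9 were tested, of which 2 were higher and 4 lower in iKO, and their summed level was between 3490 and 3572 TPM in iKO libraries and between 4092 and 4179 TPM in WT libraries. Markers of other cell types were present in every library and differed between the groups. Red blood cell markers summed to levels between 720 and 840 TPM in iKO libraries and between 69.7 and 80.9 TPM in WT libraries, and 5 of 5 were higher in iKO. Endothelial markers summed to levels between 986 and 1040 TPM in iKO libraries and between 677 and 689 TPM in WT libraries, with 10 higher and 1 lower of 12. Astrocyte markers summed to levels between 5193 and 5377 TPM in iKO libraries and between 7626 and 7908 TPM in WT libraries, with 0 higher and 7 lower of 8. Microglia markers summed to levels between 552 and 570 TPM in iKO libraries and between 684 and 733 TPM in WT libraries, with 0 higher and 7 lower of 8. Y-linked transcripts summed to levels between 53.9 and 73.4 TPM in iKO libraries and between 135 and 163 TPM in WT libraries. Xist, the female-specific transcript, was between 18.9 and 20.1 TPM in iKO libraries and between 15.4 and 16.9 TPM in WT libraries. Every library thus held transcripts of both sexes, as a pool of male and female animals would. Whether the pools of a group came from separate animals is not stated. Of all genes tested with limma, 20.7% were higher in iKO and 31.9% lower, and no marker list was tested against these shares. No gene of the 12 marker lists was at 0 in all libraries. In such bulk samples fewer cells of a type and less RNA per cell cannot be told apart, and the part of these shifts in the Wnt results was not tested.

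A total of 45 members reached 1 TPM in at least 4 libraries and were tested with limma on log2(TPM + 1) across all 16413 such genes. At a Benjamini-Hochberg adjusted p under 0.05, 5 members were higher in iKO (Nkd1, Lgr6, Lef1, Tcf7l1 and Gsk3b), 18 were lower and 22 did not pass. The split depended on scaling, with 7 higher and 13 lower after trimmed mean scaling, 9 and 12 after quantile normalization, and 7 and 12 after removing trends with transcript length and GC. Of all tested genes, 52.6% were called (20.7% higher and 31.9% lower), so the 51.1% of members called lay near the background. The higher share was 11.1% and the lower share 40.0% among the members, and these shares were not tested against the background. The median log2 fold change, iKO minus WT, was -0.092 over the tested members and -0.061 over all tested genes, and -0.033, 0.0032 and -0.0033 over the members after those 3 rescalings. A log2 fold change of at least 0.5 in either direction was reached by 8 called members, and 16.7% of all tested genes were called and reached it. In 22 members the iKO and WT libraries did not overlap, with iKO above in 5 and below in 17. Across all tested genes the groups did not overlap in 49.2%, with iKO above in 19.2% and below in 29.9%. Summed over the 61 members, the level was between 1034 and 1055 TPM in iKO libraries and between 1134 and 1157 TPM in WT libraries.

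Of the 23 calls, 16 held when any library was left out, under 3 rescalings (trimmed mean factors, quantile normalization, and removal of the libraries' trends with transcript length and GC), under other pseudocounts and filters where the gene was still tested, and in the authors' deposited table. The calls for Fzd4, Fzd7, Lgr4, Wif1, Wnt5b, Axin1 and Ctnnb1 were lost in at least 1 of those settings. A sex score (mean Y-linked level minus Xist, on the log2 scale) lay between -0.82 and -0.26 in iKO libraries and between 0.57 and 1.01 in WT libraries. With that score as a covariate 2 of the 23 calls were kept, those of Nkd1 and Dkk3. Because the score did not overlap between the groups, genotype and the sex makeup of the libraries cannot be told apart in this design.

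**Figure D1:**
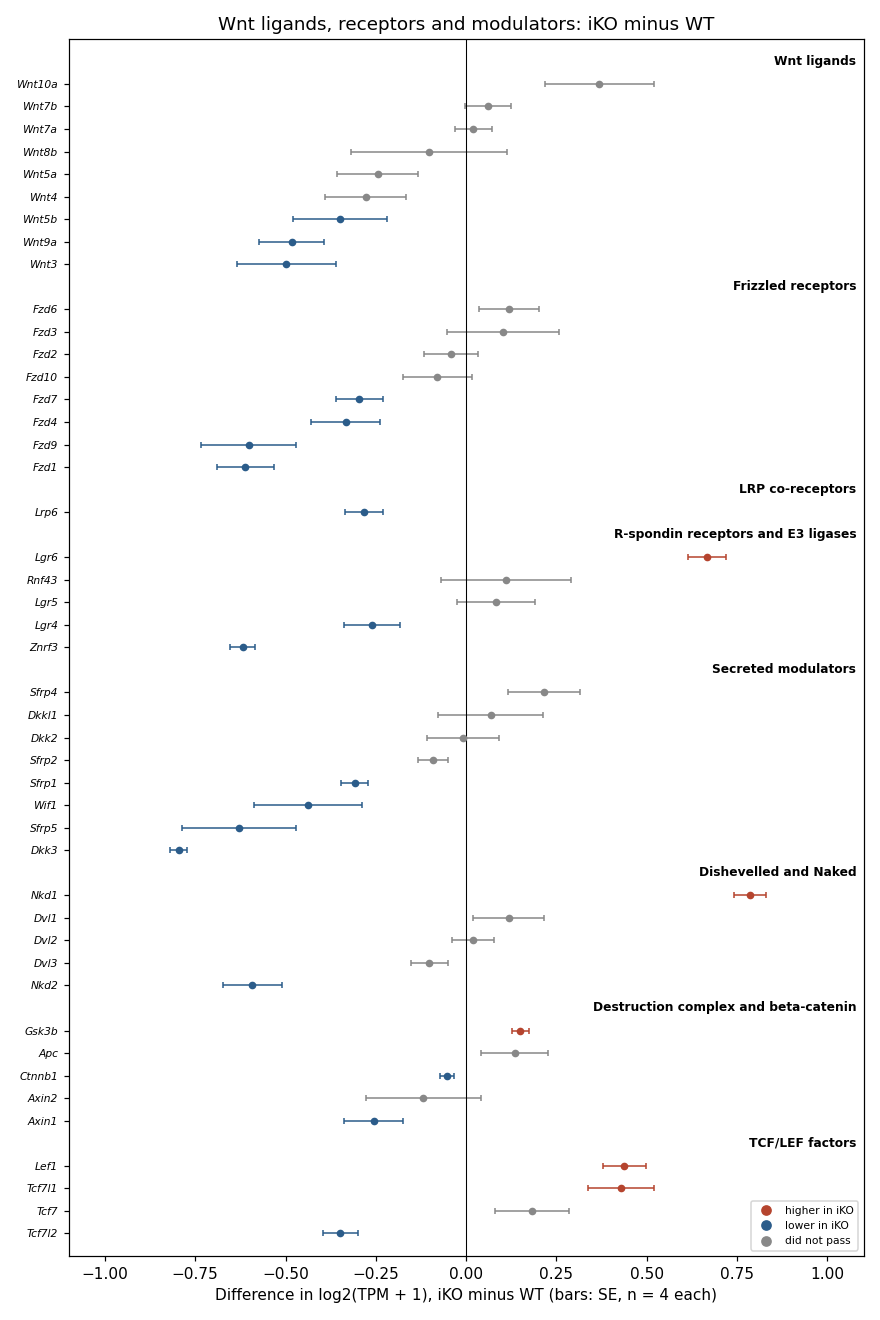
Difference of iKO minus WT in mean log2(TPM + 1) of each of the 45 tested members (points) with its standard error (bars), grouped by role. Nkd1 and Lgr6 stand furthest to the right at 0.79 and 0.67, and Dkk3 furthest to the left at -0.80.

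Among the 19 ligands, 9 were tested, 3 fell in iKO, 0 rose and 6 did not pass. After each of the 3 rescalings 2 fell, and trimmed mean scaling and quantile normalization each also gave 1 higher. Over all tested genes 31.9% were lower and 20.7% higher, and neither the ligands nor any role below was tested against these shares. The ligand RNA pool was dominated by Wnt7b, Wnt7a and Wnt5a, none of which passed, while the 3 that fell were low in both groups. Wnt7b (ENSMUSG00000022382.15), a ligand that acts with Wnt7a on brain endothelium through the co-receptors Adgra2 and Reck, was the most abundant ligand. It measured 32.6, 32.9, 34.1 and 32.7 TPM in the iKO libraries, against 28.3, 34.0, 34.5 and 30.3 TPM in the WT libraries. The groups overlapped (log2 fold change 0.061, SE 0.063, limma adjusted p = 0.447), and Wnt7b made up 50.5% ± 1.49 of ligand TPM in iKO and 46.4% ± 1.88 in WT. Wnt7a averaged 12.3 ± 0.537 TPM in iKO and 12.2 ± 0.532 TPM in WT. Wnt5a, best known as a ligand of the β-catenin-independent branch, averaged 10.7 ± 1.35 TPM in iKO and 12.9 ± 1.82 TPM in WT (adjusted p = 0.0974, limma), and was called lower without WT replicate 4.

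Wnt3, a canonical ligand, was 0.640, 0.475, 1.08 and 0.973 TPM in the iKO libraries, against 1.84, 1.50, 1.38 and 1.33 TPM in the WT libraries. All iKO values lay below all WT values (log2 fold change -0.50, SE 0.136, adjusted p = 0.0134, limma). Wnt9a fell to 0.935 ± 0.040 TPM in iKO, against 1.71 ± 0.206 TPM in WT (log2 fold change -0.48, limma adjusted p = 0.00191). Wnt3 and Wnt9a were called under every alternative except those with a mean TPM filter, where they were not tested, and the sex score. Wnt5b averaged 0.919 ± 0.258 TPM in iKO and 1.44 ± 0.252 TPM in WT (limma adjusted p = 0.049), a call that was lost without WT replicate 1, 2, 3 or 4 and without iKO replicate 1 or 2. Wnt10a pointed the other way, averaging 1.96 ± 0.352 TPM in iKO against 1.31 ± 0.384 TPM in WT, and did not pass (limma adjusted p = 0.0675), though it was called higher after trimmed mean scaling and quantile normalization, and without iKO replicate 3 or WT replicate 2. Wnt4 and Wnt8b did not pass either. Below the filter were 9 ligands (Wnt1, Wnt2, Wnt2b, Wnt6, Wnt8a, Wnt9b, Wnt10b, Wnt11 and Wnt16), with group means between 0 and 0.69 TPM, and Wnt3a was listed at 0 in all 8 libraries.

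Of the 10 Frizzled receptors, 8 were tested, 4 fell, 0 rose and 4 did not pass, where 31.9% of all tested genes were lower and 20.7% higher. The 4 that fell were among the less abundant receptors, and the 3 most abundant ones, Fzd3, Fzd2 and Fzd6, did not pass. Quantile normalization turned these counts to 2 lower and 1 higher, with Fzd4 and Fzd7 lost and Fzd6 gained. Fzd1 (ENSMUSG00000044674.6) measured 3.87, 3.12, 3.76 and 3.51 TPM in the iKO libraries, against 6.08, 5.38, 6.05 and 6.37 TPM in the WT libraries. The iKO libraries lay below all WT libraries (log2 fold change -0.61, SE 0.0782, adjusted p = 0.000206, limma). Fzd9 (ENSMUSG00000049551.2), a receptor known from hippocampal development, measured 2.45, 3.85, 2.78 and 2.66 TPM in the iKO libraries, against 5.24, 3.92, 5.07 and 5.58 TPM in the WT libraries. The highest iKO library stood just under the lowest WT library (log2 fold change -0.60, SE 0.131, adjusted p = 0.00441, limma). Fzd7 averaged 4.41 ± 0.325 TPM in iKO and 5.63 ± 0.173 TPM in WT (log2 fold change -0.30, limma adjusted p = 0.00459). Fzd4, the receptor for Norrin in vessels, averaged 1.99 ± 0.303 TPM in iKO and 2.75 ± 0.201 TPM in WT (log2 fold change -0.33, limma adjusted p = 0.0177). The Fzd4 call was lost with quantile normalization and with the length and GC trend removed. Endothelial markers (10 of 12) were higher in iKO, and a link of these to Fzd4 was not tested.

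Fzd3, which acts in axon guidance and planar cell polarity, was the most abundant Frizzled. It measured 32.9, 18.8, 19.3 and 25.4 TPM in the iKO libraries, against 22.1, 21.5, 21.9 and 21.8 TPM in the WT libraries. The WT libraries spanned a narrow range while iKO replicates 1 and 4 stood above and iKO replicates 2 and 3 below all of them (log2 fold change 0.10, SE 0.155, limma adjusted p = 0.607). The authors' deposited table gave Fzd3 a log2 fold change of -0.12 with an adjusted p of 2.54e-05, opposite in sign to the TPM difference. Fzd6 averaged 9.31 ± 0.676 TPM in iKO and 8.52 ± 0.965 TPM in WT but did not pass here (limma adjusted p = 0.258), and the authors' deposited table called it higher (log2 fold change 0.24, adjusted p = 0.00292). Fzd5 and Fzd8 were below the filter. Fzd5 measured 0.194, 0.224, 0.313 and 0.361 TPM in the iKO libraries, against 0.545, 0.607, 0.504 and 0.452 TPM in the WT libraries. The groups did not overlap, with the smallest p the exact two-sided permutation test can give (0.0286), which became 0.21 after Benjamini-Hochberg adjustment over 13077 genes below the filter. It was called lower by limma with no filter (adjusted p = 0.0354) and in the authors' deposited table (log2 fold change -0.89, adjusted p = 0.00493). Fzd5 was the 1 member of 14 below the filter with an unadjusted p under 0.05, and 13.6% of all genes below the filter had one.

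The LRP co-receptors differed in abundance. Lrp6 (ENSMUSG00000030201.15) measured 6.26, 6.73, 6.40 and 6.47 TPM in the iKO libraries, against 7.67, 8.40, 8.05 and 8.22 TPM in the WT libraries. All 4 iKO libraries lay below the WT range (log2 fold change -0.28, SE 0.0526, adjusted p = 0.00188, limma). Lrp5, its paralogue, stayed below the filter at 0.577, 0.715, 0.517 and 0.660 TPM in the iKO libraries, against 0.745, 0.751, 0.561 and 0.659 TPM in the WT libraries. The Lrp5 groups overlapped (exact permutation p = 0.343).

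**Figure D2:**
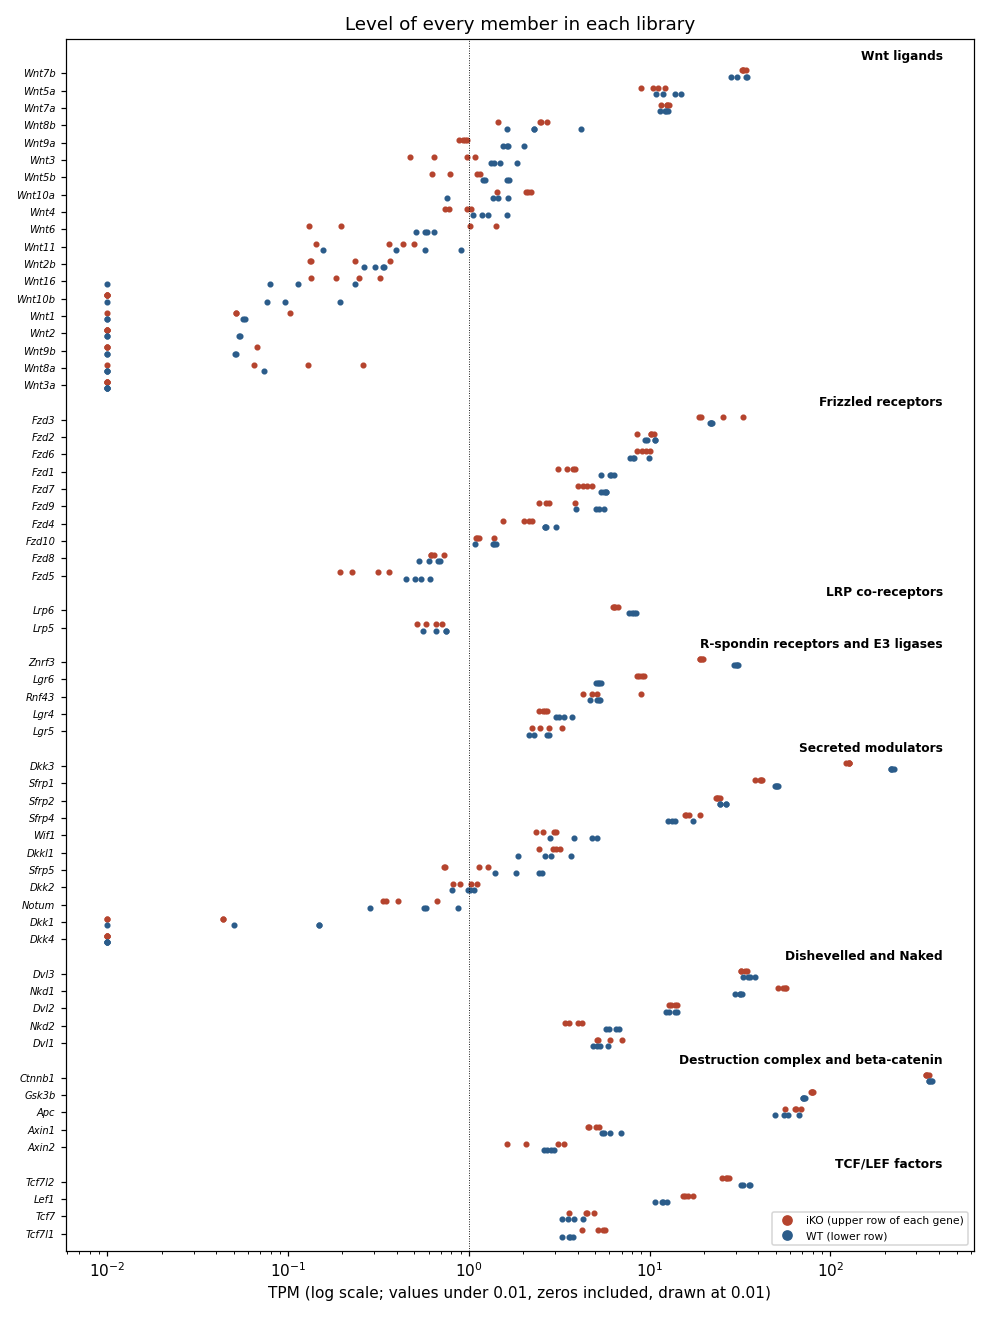
Level of each of the 61 members in each library (points, TPM, log axis), by role, with iKO in the upper row and WT in the lower row of each gene; values under 0.01 are drawn at 0.01, and the dotted line marks 1 TPM. Ctnnb1, with means of 344 TPM in iKO against 358 TPM in WT, and Dkk3, with means of 126 TPM in iKO and 220 TPM in WT, are the most abundant members.

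All 5 R-spondin receptors and their E3 ligases were tested. Lgr6 rose, Znrf3 and Lgr4 fell, and Lgr5 and Rnf43 did not pass, so the LGR paralogues moved apart. Lgr6 (ENSMUSG00000042793.13) measured 8.47, 9.07, 8.73 and 9.27 TPM in the iKO libraries, against 5.42, 5.24, 5.08 and 5.16 TPM in the WT libraries. Every iKO library stood above every WT library (log2 fold change 0.67, SE 0.0530, adjusted p = 1.13e-05, limma), a mean 1.70 times that of WT. Lgr4 measured 2.44, 2.72, 2.65 and 2.59 TPM in the iKO libraries, against 3.35, 3.17, 3.02 and 3.73 TPM in the WT libraries. These groups did not overlap either (log2 fold change -0.26, SE 0.0772, adjusted p = 0.0193, limma), but the Lgr4 call was lost without iKO replicate 1, without WT replicate 4 and under each of the 3 rescalings. The Lgr6 to Lgr4 ratio within a library was 3.42 ± 0.130 in iKO and 1.58 ± 0.135 in WT. Lgr5, a stem cell marker in epithelia, averaged 2.70 ± 0.439 TPM in iKO and 2.48 ± 0.308 TPM in WT.

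Znrf3 (ENSMUSG00000041961.14), the E3 ligase that clears Frizzled and LRP6 and is itself a Wnt target, measured 19.0, 19.6, 19.1 and 19.8 TPM in the iKO libraries, against 29.5, 30.8, 30.2 and 30.6 TPM in the WT libraries. The gap between the groups was many times the spread within either (log2 fold change -0.62, SE 0.0345, adjusted p = 1.38e-06, limma). Its paralogue Rnf43 measured 4.28, 4.83, 8.96 and 5.13 TPM in the iKO libraries, against 5.27, 5.13, 5.32 and 4.69 TPM in the WT libraries. A single library, iKO replicate 3, stood high, and the rest overlapped (limma adjusted p = 0.634).

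Promoters are shown for 2 paralogue pairs that moved in opposite directions, Lgr6 with Lgr4, whose call depended on scaling, and Tcf7l1 with Tcf7l2. Each window runs from 250 bases before to 50 bases after a RefSeq transcription start in GRCm38.p6, is given 5′ to 3′ on the gene's strand, and has its CG dinucleotides in capitals. CpG-rich promoters are where the mark written by ASH2L complexes usually lies, and no histone mark was measured here.
Lgr6, chr1:135105227-135105526, minus strand: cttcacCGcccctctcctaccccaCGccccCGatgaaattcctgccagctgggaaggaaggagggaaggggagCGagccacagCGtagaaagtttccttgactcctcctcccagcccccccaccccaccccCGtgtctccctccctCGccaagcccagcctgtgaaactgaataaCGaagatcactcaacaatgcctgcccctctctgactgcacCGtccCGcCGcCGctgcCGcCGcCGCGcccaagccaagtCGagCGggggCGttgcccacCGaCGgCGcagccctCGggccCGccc
Lgr4, chr2:109917397-109917696, plus strand: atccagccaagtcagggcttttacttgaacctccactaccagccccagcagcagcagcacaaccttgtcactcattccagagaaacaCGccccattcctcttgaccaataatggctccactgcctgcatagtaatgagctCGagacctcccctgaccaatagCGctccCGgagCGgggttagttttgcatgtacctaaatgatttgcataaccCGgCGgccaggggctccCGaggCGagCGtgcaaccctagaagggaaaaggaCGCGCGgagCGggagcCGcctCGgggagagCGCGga
Tcf7l1, chr6:72788996-72789295, minus strand: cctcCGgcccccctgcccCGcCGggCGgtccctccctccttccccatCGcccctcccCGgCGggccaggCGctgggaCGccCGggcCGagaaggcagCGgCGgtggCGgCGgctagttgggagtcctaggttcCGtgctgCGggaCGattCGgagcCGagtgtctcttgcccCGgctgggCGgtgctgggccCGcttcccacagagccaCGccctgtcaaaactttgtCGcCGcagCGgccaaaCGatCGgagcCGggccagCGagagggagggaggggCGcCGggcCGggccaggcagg
Tcf7l2, chr19:55741560-55741859, plus strand: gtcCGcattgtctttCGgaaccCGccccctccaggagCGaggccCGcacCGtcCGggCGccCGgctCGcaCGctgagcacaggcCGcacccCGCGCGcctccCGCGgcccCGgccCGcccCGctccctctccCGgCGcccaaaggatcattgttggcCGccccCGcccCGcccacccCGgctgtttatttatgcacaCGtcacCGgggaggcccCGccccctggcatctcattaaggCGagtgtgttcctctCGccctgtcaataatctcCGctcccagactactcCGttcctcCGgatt
The Lgr6 window held 24 CG dinucleotides and the Lgr4 window 18, while the Tcf7l1 and Tcf7l2 windows held 34 each, and a second Tcf7l2 window, not shown, held 7. Nkd1 and Nkd2, a further pair that moved in opposite directions, are not shown, and their windows held 6 and 26. Over the 52 windows of the 42 members that were matched by symbol in RefSeq and kept, the median was 24 CG dinucleotides, against 7 in all 32841 windows. The median was 19.5 in the 8 windows of the 5 members that rose and 25 in the 17 windows of 13 of the members that fell. Of those 8 windows, 4 belonged to Lef1, with 18, 21, 8 and 5 CG dinucleotides, and these medians were not compared by a test. For the Nkd1 window and the 4 Lef1 windows, the bases just after the start were not found in the gene's GENCODE M21 transcripts. The same held for the Fzd1 and Fzd7 windows and for the second windows of Tcf7 and Tcf7l2, so these RefSeq starts are less certain. The GC box GGGCGG, on either strand, stood in 69.2% of member windows, against 35.7% of all windows. No filter by gene type was applied to the set of all windows, whereas the members were protein-coding, so these sets are unlike. The TCF/LEF letters CTTTGAT or CTTTGAA, on either strand, stood in 3 member windows (Wnt5b, Wnt11 and Dkk1), which is 5.77%, against 8.65% of all windows.

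Of the 11 secreted modulators, 8 were tested, 4 fell (Dkk3, Sfrp5, Wif1 and Sfrp1), 0 rose and 4 did not pass. The shares over all tested genes were 31.9% lower and 20.7% higher. Trimmed mean scaling, quantile normalization and removal of the length and GC trend each gave 3 lower and 1 higher, with Wif1 lost and Sfrp4 gained. Their summed level was between 210 and 219 TPM in iKO libraries and between 315 and 329 TPM in WT libraries, and Dkk3 carried most of it. Dkk3 (ENSMUSG00000030772.6) is a divergent member of the Dickkopf family. It measured 122, 126, 128 and 128 TPM in the iKO libraries, against 217, 220, 216 and 226 TPM in the WT libraries. All iKO libraries lay far below all WT libraries (log2 fold change -0.80, SE 0.0239, adjusted p = 4.21e-08, limma), and WT held 1.74 times the iKO mean. Dkk3 made up 58.5% of secreted modulator TPM in iKO and 68.5% in WT. Astrocyte markers and microglia markers were also lower in iKO, 7 of 8 in each list, and a link of either to Dkk3 was not tested.

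Sfrp1, which binds Wnt ligands and is released by radial glia, was 38.2, 41.0, 41.3 and 42.1 TPM in the iKO libraries, against 50.7, 50.4, 49.7 and 51.5 TPM in the WT libraries. The groups were well apart (log2 fold change -0.31, SE 0.0365, adjusted p = 0.000124, limma). Sfrp5 was low, at 0.736, 1.14, 1.27 and 0.733 TPM in the iKO libraries, against 1.83, 2.55, 2.46 and 1.40 TPM in the WT libraries. Its iKO libraries lay below all WT libraries, although the lowest WT library came close (log2 fold change -0.63, SE 0.157, adjusted p = 0.00891, limma). Wif1, a secreted protein that binds Wnt ligands, averaged 2.74 ± 0.327 TPM in iKO and 4.13 ± 1.03 TPM in WT. The call (log2 fold change -0.44, limma adjusted p = 0.0353) rested on groups that overlapped, since WT replicate 4 stood at 2.82 TPM, and it was lost without iKO replicate 1, 2 or 4 or WT replicate 1, 2 or 3. Sfrp4 averaged 16.8 ± 1.52 TPM in iKO and 14.4 ± 2.14 TPM in WT but did not pass (limma adjusted p = 0.101), whereas the authors' deposited table called it higher (log2 fold change 0.53, adjusted p = 1.43e-08), and so did limma without WT replicate 4 and after each of the 3 rescalings. Sfrp2 averaged 23.9 ± 0.547 TPM in iKO and 25.5 ± 1.13 TPM in WT but did not pass, nor did Dkk2 and Dkkl1, whose names place them with the Dickkopf genes. Dkk1, the classical LRP6 antagonist, and Notum, which removes the lipid from Wnt proteins, were below the filter, and Dkk4 was listed at 0 throughout.

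Inside the cell, the 3 Dishevelled genes did not pass, while the Naked cuticle paralogues, which bind Dishevelled and dampen the pathway, moved apart. Nkd1 (ENSMUSG00000031661.12) measured 55.1, 51.1, 57.2 and 56.2 TPM in the iKO libraries, against 31.8, 29.7, 31.7 and 32.5 TPM in the WT libraries. The iKO libraries stood far above the WT libraries (log2 fold change 0.79, SE 0.0450, adjusted p = 1.62e-06, limma), a mean 1.75 times that of WT. Nkd2 (ENSMUSG00000021567.15) measured 3.41, 4.24, 4.02 and 3.58 TPM in the iKO libraries, against 6.0, 5.73, 6.49 and 6.77 TPM in the WT libraries. Here all iKO libraries lay below the WT range (log2 fold change -0.59, SE 0.0806, adjusted p = 0.000305, limma). The Nkd1 to Nkd2 ratio within a library was 12.1 to 16.1 in iKO and 4.79 to 5.29 in WT. Nkd1 is a widely used transcriptional target of β-catenin as well as an antagonist. Among Dishevelled genes, Dvl3 was the most abundant, with 33.1 ± 1.26 TPM in iKO and 35.6 ± 2.27 TPM in WT (log2 fold change -0.10, limma adjusted p = 0.126), and was called lower without WT replicate 1. Dvl2 shares 18.3% of its annotated exon bases with Acadvl on the opposite strand, which averaged 134 TPM in iKO and 160 TPM in WT, so without strand information its level is uncertain.

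**Figure D3:**
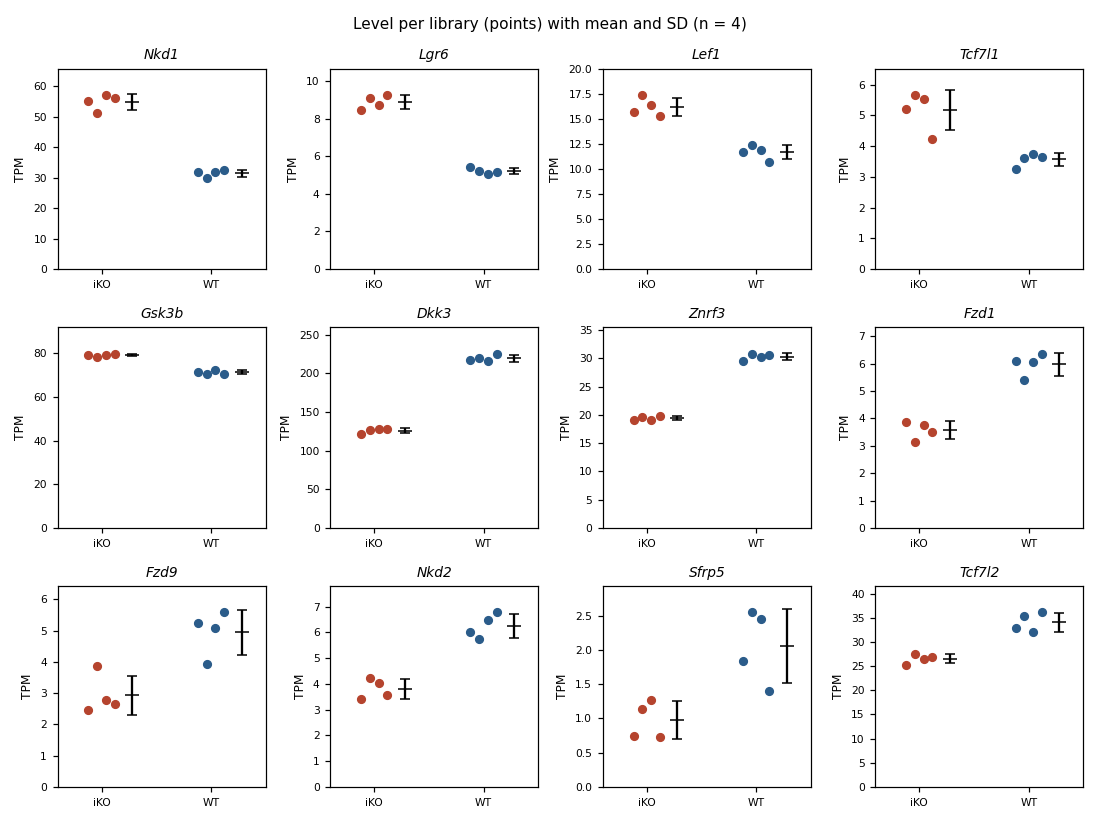
Level in each library (points, TPM) with the mean and SD (n = 4) at the right of each group, for 12 members, iKO left of WT in each panel. Nkd1, Lgr6, Lef1, Tcf7l1 and Gsk3b stand higher in iKO and the other panels lower, and in none of them do the groups overlap.

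Of the 5 destruction complex and β-catenin genes, 1 rose (Gsk3b), 2 fell (Axin1 and Ctnnb1) and 2 did not pass, and after the 3 rescalings 1 or 2 rose and 0 or 1 fell. Their summed RNA was between 486 and 505 TPM in iKO libraries and between 486 and 499 TPM in WT libraries. Ctnnb1 (ENSMUSG00000006932.17), the most abundant member, measured 341, 341, 343 and 353 TPM in the iKO libraries, against 367, 352, 359 and 352 TPM in the WT libraries. The groups overlapped at the highest iKO library, and the difference, though called here (log2 fold change -0.054, SE 0.0198, limma adjusted p = 0.0475), turned to 0.017 with trimmed mean scaling and to 0.031 after removing a length and GC trend, neither of them called. The Ctnnb1 call was also lost without iKO replicate 1, 2 or 3 and without WT replicate 1, 2 or 3. Ctnnb1 shares 14.6% of its exon bases with Ulk4 on the opposite strand, which averaged 6.87 TPM in iKO and 8.58 TPM in WT. Gsk3b (ENSMUSG00000022812.14), the kinase that marks β-catenin for degradation, measured 79.2, 78.2, 79.4 and 79.8 TPM in the iKO libraries, against 71.2, 70.6, 72.5 and 70.6 TPM in the WT libraries. This small rise was well outside the spread of the libraries (log2 fold change 0.15, SE 0.0232, adjusted p = 0.000634, limma). Axin1, the scaffold, averaged 4.86 ± 0.324 TPM in iKO and 6.02 ± 0.654 TPM in WT (limma adjusted p = 0.026), a call that was lost without iKO replicate 2 or 3 and without WT replicate 2 or 3.

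Axin2, which is both a scaffold and the most widely used readout of β-catenin activity, measured 1.63, 2.08, 3.11 and 3.38 TPM in the iKO libraries, against 2.85, 2.61, 2.70 and 2.94 TPM in the WT libraries. The iKO libraries spread to either side of the WT libraries (log2 fold change -0.12, SE 0.160, limma adjusted p = 0.56), so no difference was detectable in these TPM values. The authors' deposited table gave Axin2 a log2 fold change of -0.50 with an adjusted p of 0.0119. Apc averaged 63.2 ± 5.13 TPM in iKO and 57.8 ± 7.42 TPM in WT but did not pass (limma adjusted p = 0.254), and the authors' deposited table called it higher (log2 fold change 0.34, adjusted p = 5.95e-45).

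All 4 TCF/LEF factors, which bind the same DNA letters and carry β-catenin to them, were tested, and their mix shifted while their sum stayed between 50.1 and 55.0 TPM in iKO libraries and between 51.2 and 54.9 TPM in WT libraries. Lef1 (ENSMUSG00000027985.14), usually an activator, measured 15.7, 17.4, 16.4 and 15.3 TPM in the iKO libraries, against 11.7, 12.4, 11.9 and 10.7 TPM in the WT libraries. All iKO libraries stood above all WT libraries (log2 fold change 0.44, SE 0.0594, adjusted p = 0.000295, limma). Lef1 shares 13.7% of its exon bases with the antisense gene Lef1os1, which averaged 1.35 TPM in iKO and 0.754 TPM in WT. Lef1 is also used by brain endothelium. Endothelial markers (10 of 12) and red blood cell markers (5 of 5) were higher in iKO too, and a link of either to Lef1 was not tested. Tcf7l1 (ENSMUSG00000055799.13), usually a repressor in stem cells, measured 5.21, 5.67, 5.54 and 4.23 TPM in the iKO libraries, against 3.26, 3.61, 3.75 and 3.64 TPM in the WT libraries. The iKO libraries again lay above the WT libraries (log2 fold change 0.43, SE 0.0903, adjusted p = 0.00369, limma).

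Tcf7l2 (ENSMUSG00000024985.20), the most abundant of the family, measured 25.3, 27.4, 26.5 and 27.0 TPM in the iKO libraries, against 32.9, 35.3, 32.1 and 36.2 TPM in the WT libraries. Each iKO library lay below each WT library (log2 fold change -0.35, SE 0.0482, adjusted p = 0.000334, limma). Tcf7 averaged 4.38 ± 0.572 TPM in iKO and 3.73 ± 0.433 TPM in WT but did not pass (limma adjusted p = 0.163), though it was called higher after quantile normalization. As shares of TCF/LEF TPM, Lef1 made up 31.0% ± 0.497 in iKO and 22.0% ± 1.54 in WT, and Tcf7l2 made up 50.8% ± 1.98 in iKO and 64.2% ± 1.97 in WT. Tcf7l1 made up 9.86% ± 0.939 in iKO and 6.71% ± 0.364 in WT. None of these 3 shares overlapped between the groups.

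**Figure D4:**
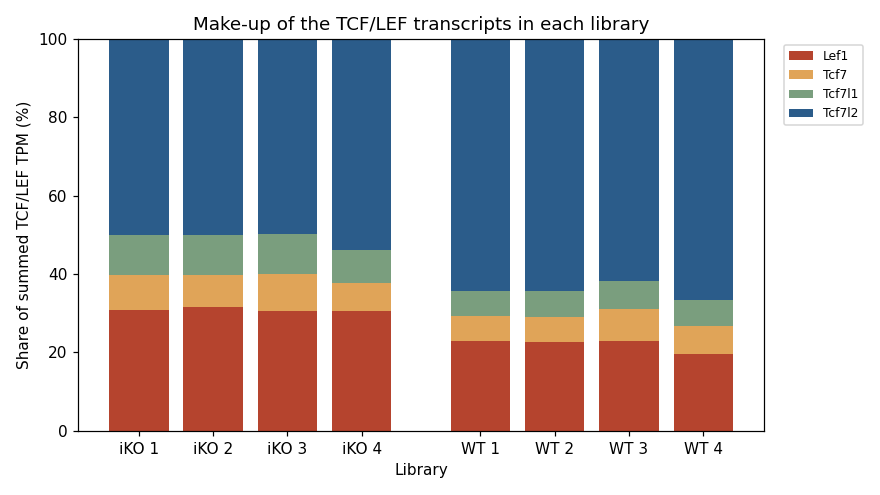
Share of summed TCF/LEF TPM (percent) held by each factor in each library, iKO libraries left of WT libraries. Tcf7l2 holds 49.7% to 53.8% in iKO and 61.7% to 66.5% in WT, and Lef1 holds 30.6% to 31.7% in iKO and 19.7% to 22.9% in WT.

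Beyond the members, 88 other Wnt pathway genes were listed, of which 76 were tested. In iKO 9 rose and 39 fell, while 28 did not pass, and the median log2 fold change was -0.14. Of all tested genes 20.7% were higher and 31.9% lower. These counts depended on scaling, with 15 higher and 22 lower after trimmed mean scaling, 13 and 26 after quantile normalization, 17 and 24 after removing a length and GC trend, and 17 and 24 in the authors' deposited table. Among genes for ligand release and agonists, 3 of 4 tested fell and 0 rose, with 2 lower after trimmed mean scaling. Wls, the carrier that takes Wnt proteins to the surface, fell to 61.1 ± 0.963 TPM in iKO, against 72.3 ± 2.35 TPM in WT (limma adjusted p = 0.00023). Rspo3, an R-spondin that binds LGR receptors, fell to 0.474 ± 0.0412 TPM in iKO, against 1.38 ± 0.231 TPM in WT (log2 fold change -0.69, limma adjusted p = 0.000574). Ndp, which encodes Norrin, averaged 34.0 ± 3.23 TPM in iKO and 39.9 ± 0.959 TPM in WT (limma adjusted p = 0.0137, lost with trimmed mean scaling).

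Of 10 tested co-receptors and alternative receptors, 6 fell and 0 rose, and 3 fell and 1 rose after each of the 3 rescalings. Over all tested genes 31.9% were lower and 20.7% higher, and the lists were not tested against these shares. Gpc3, a glypican that binds Wnt and Frizzled proteins, averaged 11.7 ± 0.396 TPM in iKO and 22.6 ± 0.921 TPM in WT (log2 fold change -0.90, limma adjusted p = 8.69e-07). Tspan12, the tetraspanin of the Norrin receptor, averaged 195 ± 3.01 TPM in iKO against 234 ± 2.10 TPM in WT, and Ptk7, a planar polarity receptor, averaged 26.5 ± 0.839 TPM in iKO and 35.1 ± 0.630 TPM in WT. Both fell (limma adjusted p = 4.55e-06 for Tspan12 and 2.57e-05 for Ptk7). Of 7 further extracellular inhibitors, 2 rose and 3 fell, and 2 rose and 1 or 2 fell after the 3 rescalings. Frzb, a secreted Frizzled-related protein, fell to 6.84 ± 1.06 TPM in iKO, against 16.0 ± 3.04 TPM in WT (log2 fold change -1.11, limma adjusted p = 0.000214). Apcdd1, a membrane inhibitor that brain endothelium also makes, rose to 26.3 ± 0.680 TPM in iKO, against 20.9 ± 1.29 TPM in WT (limma adjusted p = 0.000629). Cthrc1, which favours the planar polarity branch, rose to 27.1 ± 1.93 TPM in iKO, against 18.5 ± 0.890 TPM in WT (log2 fold change 0.53, limma adjusted p = 8.44e-05).

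Among 20 kinases and other destruction complex genes, 1 rose, 9 fell and 10 did not pass, and with trimmed mean scaling 4 rose and 3 fell. Csnk1d, a casein kinase 1, fell to 65.1 ± 2.14 TPM in iKO, against 85.7 ± 2.85 TPM in WT (limma adjusted p = 2.32e-05). Fbxw11, a β-TrCP ubiquitin ligase subunit, fell to 18.4 ± 1.72 TPM in iKO, against 26.6 ± 3.20 TPM in WT (log2 fold change -0.50, limma adjusted p = 0.00197). Of 13 nuclear cofactors, 3 rose and 6 fell, but more rose than fell after each rescaling. The counts were 3 higher and 2 lower with trimmed mean scaling, 4 and 2 with quantile normalization, and 5 and 2 with the length and GC trend removed. Tle4, a Groucho co-repressor, fell to 5.46 ± 0.215 TPM in iKO, against 7.37 ± 0.519 TPM in WT (limma adjusted p = 0.00117). Ctnnbip1, an inhibitor of β-catenin binding to TCF, rose to 71.1 ± 1.96 TPM in iKO, against 60.7 ± 4.75 TPM in WT (limma adjusted p = 0.00581), but was not called in the authors' deposited table (log2 fold change 0.018, adjusted p = 0.749).

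Of 10 tested planar cell polarity genes, 2 rose and 5 fell, and 3 rose and 4 fell after each of the 3 rescalings. Fuz, a planar polarity effector needed for cilia, rose to 45.3 ± 1.51 TPM in iKO, against 26.9 ± 2.29 TPM in WT (log2 fold change 0.73, limma adjusted p = 1.48e-05). Vangl2, a core membrane component, fell to 25.4 ± 0.890 TPM in iKO, against 33.3 ± 1.03 TPM in WT (limma adjusted p = 5.96e-05). Daam2, a formin that binds Dishevelled, fell to 8.16 ± 0.737 TPM in iKO, against 11.0 ± 0.359 TPM in WT (limma adjusted p = 0.0011). Of 12 tested genes reported elsewhere as β-catenin targets, 1 rose and 7 fell, and each rescaling left 6 or 7 lower and 1 or 2 higher. Over all tested genes 20.7% were higher and 31.9% lower. That list held no members, so it left out targets among them, such as Nkd1, which rose, Znrf3, which fell, and Axin2, which did not pass. These examples are not all the members known as targets. Mycn, a proliferation factor, fell to 156 ± 1.39 TPM in iKO, against 194 ± 3.17 TPM in WT (limma adjusted p = 2.11e-06). Id2, also a BMP target, fell to 707 ± 10.9 TPM in iKO, against 855 ± 21.7 TPM in WT (limma adjusted p = 6.46e-06). Tcf4, a bHLH factor unrelated to Tcf7l2 despite the name, fell to 1328 TPM in iKO, against 1624 TPM in WT (limma adjusted p = 4.71e-08). Ascl2 was low and fell to 0.603 ± 0.225 TPM in iKO, against 2.10 ± 0.191 TPM in WT (log2 fold change -0.96, limma adjusted p = 0.00019).

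The authors' deposited table, whose headings are those of DESeq2, called 53.9% of the genes tested here (27.8% higher and 26.1% lower). Among the 45 members tested here it called 8 higher and 18 lower, and 20 of the 23 calls made here were called there in the same direction. The other 3 were Ctnnb1, Wnt5b and Axin1. In 6 members the deposited fold change had the opposite sign, and in none of those were both values called. Of the tested members, those called in the deposited table and not here were Apc, Sfrp4 and Fzd6, which it gave as higher, and Axin2, Wnt5a and Fzd3, which it gave as lower. Fzd5, below the filter here, was also called lower there.

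**Figure D5:**
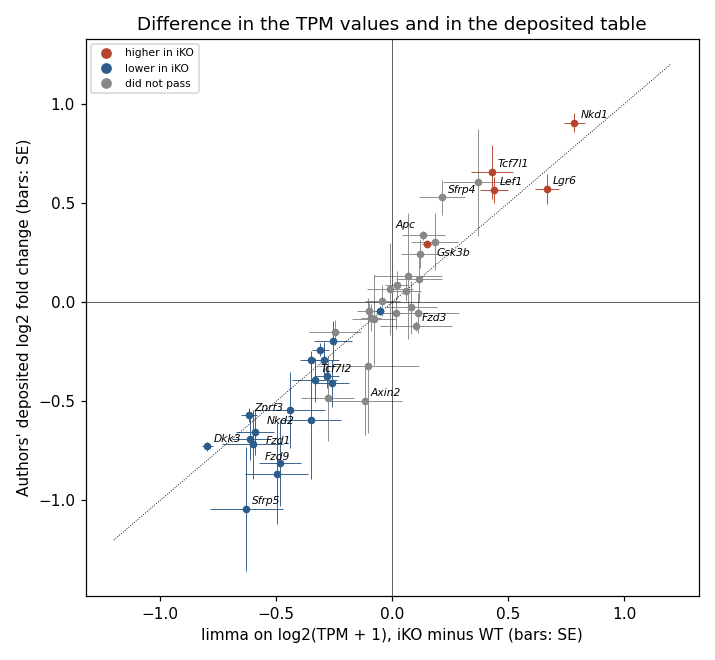
Log2 fold change of the 45 tested members from the TPM values (horizontal axis, limma, with standard error) and from the authors' deposited table (vertical axis, with its standard error), iKO over WT in both, with a dotted line of equality. Nkd1 lies at 0.79 and 0.90, Dkk3 at -0.80 and -0.73, and Axin2, which did not pass here, at -0.12 and -0.50.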

How the data were processed

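The libraries were made by Smart-Seq2, which amplifies full-length cDNA, and read as paired ends on an Illumina instrument, per the labels' protocols. The authors deposited TPM values of 55385 genes for 8 libraries, and each column summed to 1000000. They also deposited a comparison of iKO with WT, with a mean normalized signal, a log2 fold change, a standard error and test score, and p-values before and after adjustment per gene, under DESeq2's headings, per the file headers. Its adjusted p was 1 in 30307 rows. The quantifier, annotation and build behind both tables are not given in the labels or headers. Sample titles gave the groups and replicate numbers, and every value column matched a sample.

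TPM values are not counts, so limma 3.58.1 (R 4.3.3) was run on log2(TPM + 1) with trended and robust moderation, on the 16413 genes reaching a TPM of 1 in 4 or more libraries. A two-sided Benjamini-Hochberg adjusted p under 0.05 over these genes made a call. Fold changes on this scale understate the change of low genes. Below the filter, an exact permutation test (two-sided) over 70 assignments of the libraries was used. The procedure was tested on simulated data.

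The alternatives tried were a replicate block, pseudocounts of 0.1 and 5, leaving out each library, dropping the filter or asking for 5 TPM on average, trimmed mean factors and quantile normalization, quality weights per library, the sex score as a covariate, and the deposited comparison. A loess fit on length and GC (span 0.3, GENCODE M21, 99.6% of gene IDs matched) was added after seeing the data. Deviations of same-numbered libraries from their group means correlated at -0.0445 to 0.000694, so the numbers were not taken as pairs.

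The members and the gene lists were chosen with earlier results of these data known. Any member could be named. Values per library are given for called members with an absolute log2 fold change of at least 0.5, for the most abundant member of each family, for Ctnnb1, Gsk3b, Lrp5, Lrp6, Axin2 and Lef1, and for some others chosen after their values were seen. Each other list could contribute the 4 genes of lowest unadjusted p. Marker lists not given with the results held, as higher and lower of those tested, 2 and 4 of 7 for pericytes, 3 and 3 of 7 for fibroblasts, 0 and 2 of 6 for choroid plexus, 3 and 5 of 9 for the oligodendrocyte lineage, 5 and 3 of 10 for neuroblasts, 3 and 2 of 7 for mature neurons, and 0 and 4 of 4 for Y-linked genes. Promoter sequences are from RefSeq in GRCm38.p6, matched by symbol, and exon overlaps are from GENCODE M21. A chromosome exclusion was also applied to the member windows. A member without a window may therefore have been left out by that rule and not for want of a match. The member windows and the set of all windows may differ in this as well.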

Additional observations from a re-analysis of the deposited data

Results flagged for a closer look

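In 90 groups of 4 libraries (45 tested members in 2 groups), 3 held a library far from the rest of its group, where chance flags about 1 in 20 groups. Fzd10 was flagged in both groups, with iKO replicate 2 at 1.39 TPM and the rest of iKO at 1.1 to 1.14 TPM, and with WT replicate 4 at 1.08 TPM and the rest of WT at 1.36 to 1.41 TPM. Fzd10 did not pass the test. Fzd4 was flagged in WT, where replicate 1 stood at 3.06 TPM and the rest at 2.64 to 2.68 TPM.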

How the results depend on the processing

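No alternative except the sex score moved the 8 called members with an absolute log2 fold change of at least 0.5 across the threshold where they were tested. With the sex score as covariate, 423 of all genes were called, with 1 member higher and 1 lower, and 0 higher and 2 lower among other pathway genes. Ash2l itself then had a log2 fold change of -1.07 that did not pass (limma adjusted p = 0.142). With the replicate block, 8097 genes were called, and Lgr4, Wif1, Ctnnb1, Wnt5b and Axin1 were lost and Wnt10a gained among members. The cause of the changes under other scalings was not tested. The median of all genes was -0.061 in the reported values, 0.0013 with trimmed mean factors, 0.0046 with quantile normalization and 0.016 with the length and GC trend removed, and higher genes made up 39.3%, 51.1%, 49.7% and 53.4% of those called, with 51.6% in the authors' deposited table. The member median was -0.033 with trimmed mean factors, 0.0032 with quantile normalization, -0.0033 with the length and GC trend removed, -0.053 with a pseudocount of 5, -0.012 with a mean TPM of at least 5 (fewer genes tested), -0.053 with the sex score, and -0.11 to -0.061 with a library left out. Members lower numbered 9 at a mean TPM of at least 5 and 12 with the length and GC trend removed. Members higher numbered 9 with quantile normalization and 8 in the authors' deposited table. Other Wnt genes numbered 15 higher and 22 lower with trimmed mean factors, 17 and 24 with the length and GC trend removed, and 17 and 24 in the authors' deposited table. With a library left out, members higher numbered 5 to 6, members lower 14 to 17, and members below the filter at an unadjusted p under 0.05, 1 to 2. Signs turned for Ctnnb1 with trimmed mean factors (0.017, limma adjusted p = 0.563) and with the length and GC trend removed (0.031, limma adjusted p = 0.267), for Wnt5b (0.13, limma adjusted p = 0.927) and Axin1 (0.045, limma adjusted p = 0.961) with the sex score, and for Fzd3 in the authors' deposited table (-0.12, adjusted p = 2.54e-05). In 13 members, 36 further values changed sign with neither value called. TPM keeps no depth, so what depth limits could not be given.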
